A study of Mus musculus with 110 samples.

Results

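Phase II conjugation enzymes of liver were taken as every gene of the liver count table whose symbol names a glutathione S-transferase (Gst classes alpha, kappa, mu, omega, pi, theta and zeta, and Mgst1 to Mgst3), a UDP-glucuronosyltransferase (Ugt1a, Ugt2a, Ugt2b and Ugt3a) or a cytosolic sulfotransferase (Sult1 to Sult5), and whose mean over the 28 liver libraries was at least 1 CPM (read count relative to the library total, normalized with TMM factors here and below). This rule kept 43 of the 65 genes with such a symbol, and the table listed 56884 genes in all. The 43 comprised 21 of 25 Gst genes, 15 of 21 Ugt genes and 7 of 19 Sult genes, and all 43 were among the 22143 genes with enough counts to be tested. The rule used the mean level over all groups and no comparison between them. Ugt2b37 and Sult2a7 lay just inside the cutoff, at means of 2.08 and 2.10 CPM. Ugt2b37 reached it through Ctrl_RT alone, with group means of 5.92 CPM there, 1.395 CPM in Ctrl_CE, 0.651 CPM in MetR_RT and 0.336 CPM in MetR_CE, so that its lower values elsewhere were partly fixed by the rule. Its changes against Ctrl_RT are given as a description with no test, and each count of 4 members that fell against Ctrl_RT holds it and 3 others. It is likewise in each count of Ugt members that fell against Ctrl_RT. The counts of members that lay lower than Ctrl_RT without overlap, in MetR_RT and MetR_CE, also hold it. Ugt1a7c and Ugt1a10 lay just outside, at 0.703 and 0.590 CPM.

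The livers came from male wild-type C57BL/6N mice, housed singly and 16 weeks old at the end, in a 2 by 2 design with 7 mice in each group. All mice ate a purified diet without cysteine for 7 days while housed at 22 °C (room temperature, RT), with methionine at 0.86% of the diet in the control diet (Ctrl) and at 0.12% under methionine restriction (MetR). They were killed then or after an additional 24 h at 4 °C (cold exposure, CE), which gave the groups Ctrl_RT, Ctrl_CE, MetR_RT and MetR_CE. Cold and the additional day cannot be told apart in any comparison across temperatures. Because the control diet also lacked cysteine, each comparison of diets is one of methionine content on a cysteine-free background, in 1 sex and 1 strain. Each library was poly(A) RNA of 1 whole-liver sample from a different mouse. Whole-liver RNA mixes all liver cells, so that fewer cells of a type cannot be told apart from less RNA per cell in any value here.

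Conjugation, the phase II step of drug and hormone metabolism, joins a water-soluble group to a reactive or lipophilic molecule so that it can leave the cell. Glutathione S-transferases use glutathione, whose cysteine comes from the diet or from methionine through transsulfuration. UDP-glucuronosyltransferases of the endoplasmic reticulum use UDP-glucuronic acid made from glucose, and sulfotransferases of the cytosol use the activated sulfate PAPS, whose sulfur also derives from cysteine. The liver is the main site of all 3 reactions. Many of these genes are known targets of NRF2, which responds to electrophiles, of the nuclear receptors CAR, PXR and PPAR alpha, and of the aryl hydrocarbon receptor AHR.

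Library totals ran from 6987895 counts (MetR_RT replicate 1) to 33444374. The 8 hepatocyte markers summed to 55091 CPM or more in every library, and the 4 adipocyte markers to 6.96 CPM or less. Ctrl_CE replicate 4 stood apart, with a median correlation of 0.975 to the libraries of its own group, where all others reached at least 0.982. It also held the highest level of the acute-phase gene Saa1 (10994 CPM) and of the macrophage receptor Marco (249.5 CPM). In that library Sult2a8 (122 CPM), Ugt2b1 (221 CPM), Gsta2 and Gsta4 were the lowest of their group, and Sult1a1 and Gstp2 the highest. Counts of changed members are therefore given with and without it.

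In Ctrl_RT the most abundant members per kilobase of annotated exon were microsomal Mgst1, at a mean of 1215 CPM per kb, and Gstp1, a pi-class enzyme abundant in male mouse liver, at 929 CPM per kb. The glucuronosyltransferase Ugt2b5 followed at 353 CPM per kb, then Gstm1 at 282.4, Ugt2b36 at 243.2 and Ugt2b1 at 228. Sult2a8, which sulfates bile acids, led the sulfotransferases at 191 CPM per kb. Gsta2 was the lowest of the 43 at 1.61 CPM per kb. Under MetR_RT the order changed at the top, and Gstm1 reached 1466 CPM per kb, above Mgst1 at 1073 CPM per kb.

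Many members lie side by side in the genome (GRCm38, GENCODE M21 coordinates). The 7 Gstm members occupied chr3:107895821-108044894. The 7 Ugt2b members, Ugt2a3, Sult1b1 and Sult1d1 lay within chr5:86889767-87569027. The 5 Ugt1a members on chromosome 1 have first exons of their own and share the remaining exons. Near-identical copies limit how reads can be divided among them. The 5 Ugt1a members shared 52.1% to 79.8% of their 50-base transcript stretches with another gene, the length of a read. The shares were 54.3% for Gstp2, 49.8% for Gsta2, 41.7% for Ugt2b5, 37.4% for Ugt2b38, 33.7% for Gstp1, 28.8% for Gstm3, 18.9% for Gstm1, 18.3% for Ugt2b37 and 12.5% for Gstt3. The levels of these genes are accordingly uncertain. For 20 of the 43 members under 1% was shared.

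To see how MetR alone acted, MetR_RT was compared with Ctrl_RT. Of the 43 members 20 rose and 4 fell, where a change was called at an edgeR quasi-likelihood adjusted p under 0.05 (Benjamini-Hochberg over all genes tested) and at least 1.5-fold. In all, 6.91% of the tested genes were called in this comparison, 2.88% higher and 4.02% lower. The median log2 fold change was 0.56 over the members and 0.00451 over all genes tested. For 20 members every MetR_RT mouse lay above every Ctrl_RT mouse and for 2, Ugt2b38 and Ugt2b37, every mouse lay below. Ugt2b37 is in that count partly by the rule. Of all tested genes 5.51% had no overlap (2.99% higher and 2.52% lower). By family, 13 of 21 Gst members rose, 6 of 15 Ugt members rose and 2 fell, and 1 of 7 Sult members rose and 2 fell. No Gst member fell by this call in edgeR (1 had an unadjusted p under 0.05, and DESeq2 called 0).

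The alpha and mu classes, which conjugate electrophiles such as lipid aldehydes and epoxides, held the largest increases. Gsta2, an alpha-class enzyme with peroxidase activity, ran from 1.18 to 2.89 CPM (median 1.66) in Ctrl_RT and from 19.6 to 46.3 CPM (median 26.4) in MetR_RT. Its log2 fold change was 3.99 ± 0.30 (SE), adjusted p = 6.36e-11, from a very low starting level. Gsta3, which detoxifies aflatoxin epoxide in mice, was far more abundant and ran from 591 to 989 CPM (median 713) in Ctrl_RT and from 1450.2 to 1718 CPM (median 1632) in MetR_RT. It rose with a log2 fold change of 1.06 ± 0.13 (SE), adjusted p = 3.61e-07. The groups did not overlap for either gene. Gsta4, which conjugates the lipid aldehyde 4-hydroxynonenal, ran from 8.74 to 14.5 CPM (median 10.8) and from 23.7 to 46.2 CPM (median 29.6), again without overlap (log2 fold change 1.54 ± 0.19 (SE), adjusted p = 4.52e-07).

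Among the mu class, Gstm1 gained the most in CPM. It ran from 289.4 to 547 CPM (median 409) in Ctrl_RT and from 1859 to 2600.3 CPM (median 2161) in MetR_RT, a log2 fold change of 2.38 ± 0.15 (SE), adjusted p = 9.14e-13. Its neighbour Gstm3 ran from 9.17 to 24.5 CPM (median 13.4) and from 63.8 to 214 CPM (median 90.5) (log2 fold change 2.99 ± 0.25 (SE), adjusted p = 4.61e-10). The highest MetR_RT value of Gstm3 is well above the group's median, yet the lowest still exceeds every control. Gstm2 ran from 13.5 to 25.8 CPM (median 16.3) and from 70.5 to 141 CPM (median 95.4) (log2 fold change 2.41 ± 0.15 (SE), adjusted p = 7.84e-13). Gstm4 and Gstm6 also rose, with log2 fold changes of 1.51 ± 0.099 and 0.93 ± 0.11. The last 2 genes of the cluster did not pass the call, with 0.42 ± 0.078 for Gstm7 and 0.04 ± 0.11 for Gstm5.

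All 3 theta-class members rose, led by Gstt2 at 1.44 ± 0.16 and followed by Gstt3 at 0.95 ± 0.20 and Gstt1 at 0.67 ± 0.11. Gstt2 ran from 24.95 to 47.6 CPM (median 28.9) in Ctrl_RT and from 57.5 to 121 CPM (median 79.8) in MetR_RT. The pi class was split, since Gstp3 rose (1.38 ± 0.17) while the abundant Gstp1 had a log2 fold change of -0.23 ± 0.17 (adjusted p = 0.385). Likewise membrane-bound Mgst3 rose (1.38 ± 0.16), and the abundant Mgst1 had -0.18 ± 0.059. Gstk1 of mitochondria and peroxisomes had -0.07 ± 0.073. Gstz1, the maleylacetoacetate isomerase of tyrosine breakdown, had 0.11 ± 0.054, and Gsto1, a glutathione-dependent reductase, 0.50 ± 0.088. The members of this paragraph other than Gstt2, Gstt3 and Mgst1 were chosen after their values were seen.

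**Figure D1:**
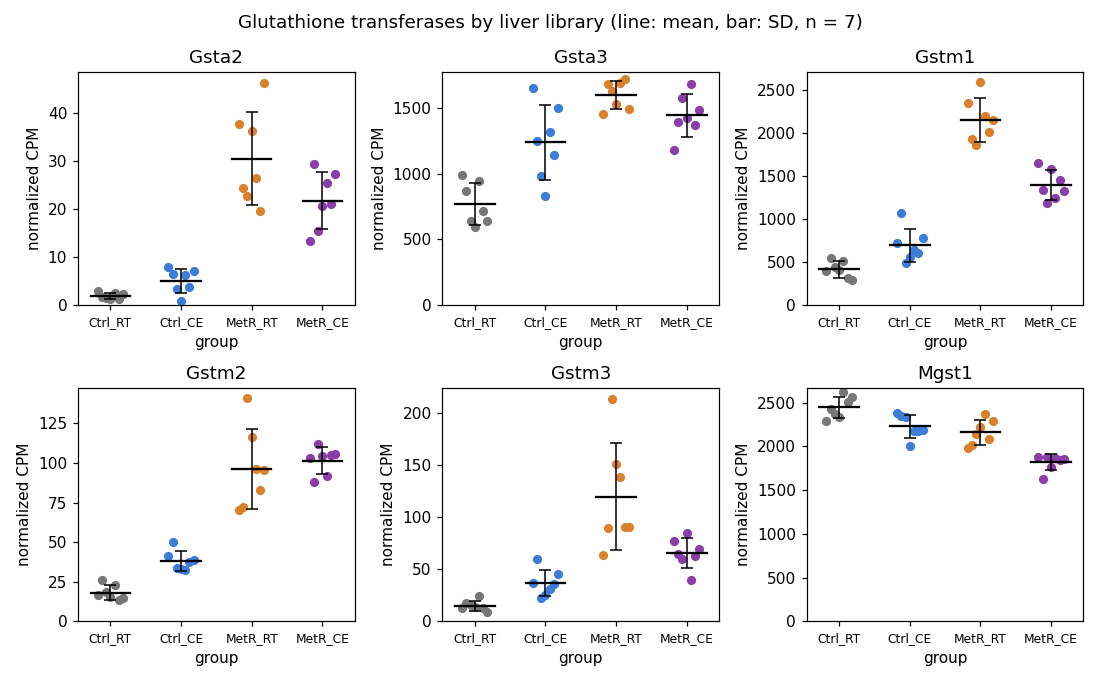
Normalized CPM (linear axes from 0) of 6 glutathione S-transferases in each liver library, with 1 point per mouse, a line at the mean and a bar of 1 SD in each group (n = 7). Gsta2, Gstm1 and Gstm3 have MetR_RT points above all Ctrl_RT points, and their MetR_CE means lie between those of Ctrl_CE and MetR_RT.

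Among the glucuronosyltransferases the Ugt1a locus rose in part. Ugt1a9, which glucuronidates bulky phenols, ran from 10.1 to 31.9 CPM (median 15.3) in Ctrl_RT and from 56.0 to 98.2 CPM (median 64.98) in MetR_RT. Its log2 fold change was 2.14 ± 0.19 (SE), adjusted p = 2.68e-09. Every MetR_RT mouse was above every Ctrl_RT mouse, including Ctrl_RT replicate 5, which was apart from its group at 31.9 CPM. Ugt1a6a, specific for small planar phenols, ran from 6.34 to 14.8 CPM (median 10.995) and from 19.5 to 31.7 CPM (median 25.96) (log2 fold change 1.21 ± 0.18 (SE), adjusted p = 1.01e-05). Ugt1a1, the bilirubin enzyme, rose with 0.68 ± 0.099. Ugt1a6b (0.56 ± 0.088) and Ugt1a5 (0.78 ± 0.35, adjusted p = 0.133) did not pass the call.

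The Ugt2b cluster, whose enzymes conjugate steroids, bile acids and many drugs, moved in opposite directions. Ugt2b5, Ugt2b36 and Ugt2b35 rose. Ugt2b5 ran from 499 to 772 CPM (median 695) in Ctrl_RT and from 1032 to 1248 CPM (median 1129) in MetR_RT (log2 fold change 0.80 ± 0.083 (SE), adjusted p = 3.17e-08). Ugt2b36 ran from 412 to 581 CPM (median 501) and from 854 to 1013 CPM (median 895) (log2 fold change 0.85 ± 0.074 (SE), adjusted p = 9.83e-10), and Ugt2b35 had 0.89 ± 0.12. None of the 3 overlapped between groups. Ugt2b38 fell, from 7.15 to 30.4 CPM (median 25.1) in Ctrl_RT to 1.10 to 2.96 CPM (median 2.74) in MetR_RT (log2 fold change -3.12 ± 0.41 (SE), adjusted p = 1.88e-06). Ugt2b37 ran from 2.24 to 21.7 CPM (median 3.24) and from 0.0744 to 1.65 CPM (median 0.560) (log2 fold change -3.35 ± 0.52). Its highest control, Ctrl_RT replicate 7, was far above the next at 4.79 CPM. Without that library the log2 fold change of Ugt2b37 was -2.50. Ugt2b1 (-0.52 ± 0.15) and Ugt2b34 (0.31 ± 0.085) did not pass the call.

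The start regions of Ugt2b5, Ugt2b36, Ugt2b37 and Ugt2b38 are shown because these neighbours moved in different directions and share a run of bases close to the start. Each window is the 250 bases before the RefSeq start of the gene on the minus strand of GRCm38.p6, namely chr5:87140341-87140590 for Ugt2b5, chr5:87092556-87092805 for Ugt2b36, chr5:87254789-87255038 for Ugt2b37 and chr5:87424204-87424453 for Ugt2b38. Capitals mark the longest run that all 4 share, 22 bases that end 7 to 24 bases before the start.
Ugt2b5: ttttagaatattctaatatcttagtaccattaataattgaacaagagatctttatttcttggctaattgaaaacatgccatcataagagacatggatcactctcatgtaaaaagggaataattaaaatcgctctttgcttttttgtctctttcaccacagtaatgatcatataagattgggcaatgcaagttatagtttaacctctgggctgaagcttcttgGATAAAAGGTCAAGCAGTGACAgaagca
Ugt2b36: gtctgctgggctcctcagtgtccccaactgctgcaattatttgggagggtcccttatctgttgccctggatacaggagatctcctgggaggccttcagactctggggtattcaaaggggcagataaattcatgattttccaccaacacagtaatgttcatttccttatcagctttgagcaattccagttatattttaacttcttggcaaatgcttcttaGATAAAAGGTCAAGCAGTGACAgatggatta
Ugt2b37: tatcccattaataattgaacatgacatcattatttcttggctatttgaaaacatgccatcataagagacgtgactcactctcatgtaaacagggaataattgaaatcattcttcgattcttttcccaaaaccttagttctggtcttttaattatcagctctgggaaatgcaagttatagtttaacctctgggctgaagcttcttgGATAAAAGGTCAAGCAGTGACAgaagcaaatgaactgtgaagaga
Ugt2b38: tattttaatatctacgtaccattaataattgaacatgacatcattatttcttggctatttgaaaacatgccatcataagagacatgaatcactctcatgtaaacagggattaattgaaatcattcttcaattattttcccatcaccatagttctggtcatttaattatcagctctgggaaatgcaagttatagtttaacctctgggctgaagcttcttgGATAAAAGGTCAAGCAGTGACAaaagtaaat
Over the window Ugt2b38 was 85.2% identical to Ugt2b37, which was also lower, and 81.5% identical to Ugt2b5, which rose. Ugt2b37 and Ugt2b5 were 72.99% identical, with 200 identical, 26 mismatched and 48 gap columns in the alignment. Each percentage counts gap columns as not identical, and the windows are set by annotated starts at different distances from the shared run. Ugt2b36, which rose with Ugt2b5, was 58.3% to 60.4% identical to the others. The longest run shared by Ugt2b5, Ugt2b37 and Ugt2b38 was 62 bases. Ugt2b35, which also rose, was 55.6% to 58.9% identical to these 4 and shared a run of at most 14 bases with any of them. The 4 genes were picked for their responses, and no relation between window and response was tested.

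**Figure D2:**
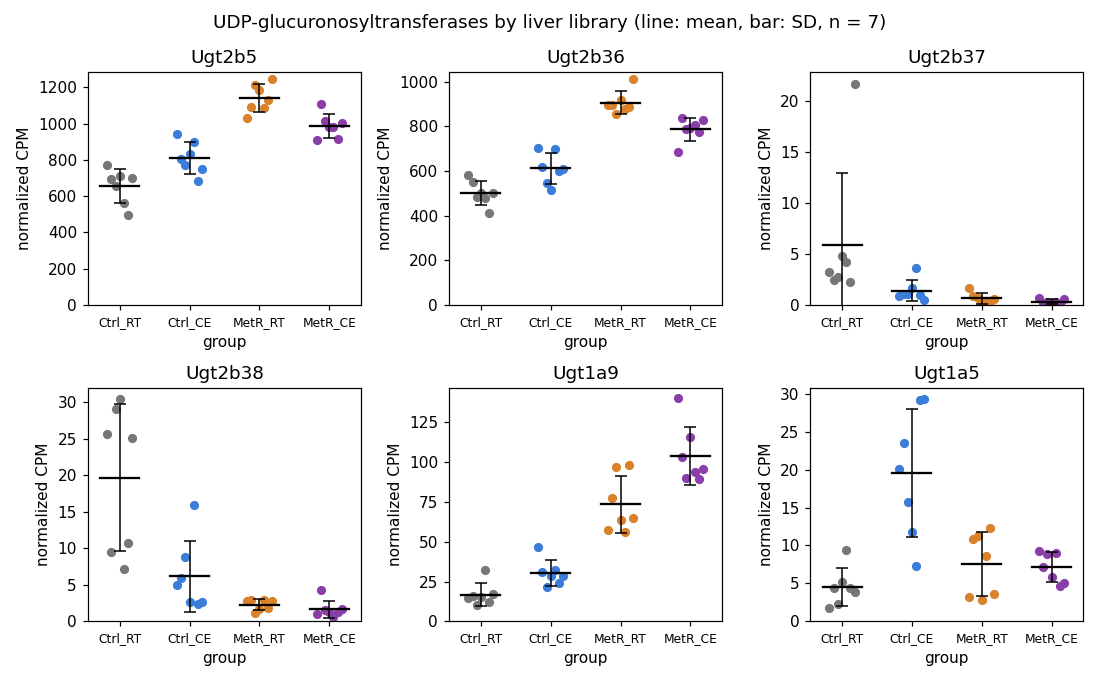
Normalized CPM (linear axes from 0) of 6 glucuronosyltransferases in each liver library, with 1 point per mouse, a line at the mean and a bar of 1 SD in each group (n = 7). The means of Ugt2b38 and Ugt2b37 are lower in the other 3 groups than in Ctrl_RT, that of Ugt1a9 is highest in MetR_CE, and that of Ugt1a5 is highest in Ctrl_CE.

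A further pair of windows belongs to members with large or abundant increases and holds short motifs bound by liver factors.
Ugt1a9: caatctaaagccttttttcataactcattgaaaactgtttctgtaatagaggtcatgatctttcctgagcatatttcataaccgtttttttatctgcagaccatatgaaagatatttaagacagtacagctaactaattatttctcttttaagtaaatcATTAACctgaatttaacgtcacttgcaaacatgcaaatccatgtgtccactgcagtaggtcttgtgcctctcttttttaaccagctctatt
Gsta3: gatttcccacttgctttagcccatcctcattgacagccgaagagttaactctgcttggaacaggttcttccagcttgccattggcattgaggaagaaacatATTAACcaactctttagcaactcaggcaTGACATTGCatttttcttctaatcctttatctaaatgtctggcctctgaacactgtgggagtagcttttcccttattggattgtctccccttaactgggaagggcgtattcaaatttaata
These are chr1:88070529-88070778 and chr1:21240335-21240584 on the plus strand of GRCm38.p6, with capitals for matches. ATTAAC, the reverse complement of the HNF1 motif GTTAAT, lay 91 to 86 bases before the start of Ugt1a9 and 149 to 144 bases before that of Gsta3. TGACATTGC in Gsta3, 121 to 113 bases before the start, matches the antioxidant response element core TGACNNNGC. The 38 members with a RefSeq start have 48 windows. Searched on both strands, GTTAAT occurred in 8 of the 48 (16.7%, 8 members) and in 6.43% of all 32851 windows. TGACNNNGC occurred in 4 of the 48 (8.33%, Gsta3, Gstm5, Gstm7 and Mgst1) and in 10.2% of all windows, and the AHR core GCGTG in 10 of the 48 (20.8%, 9 members) and in 28.2%. The motif matches are letters in a window, and binding was not measured.

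Of the 7 sulfotransferases 1 rose and 2 fell. Sult1c2 rose from 2.20 to 4.58 CPM (median 2.67) in Ctrl_RT to 5.78 to 14.02 CPM (median 9.53) in MetR_RT without overlap (log2 fold change 1.57 ± 0.20 (SE), adjusted p = 1.74e-06). Sult2a7, of the bile acid and steroid subfamily, fell from 1.43 to 4.83 CPM (median 2.48) to 0.789 to 1.46 CPM (median 1.04) (log2 fold change -1.39 ± 0.32 (SE), adjusted p = 0.00195), at a level near the cutoff of the rule. Sult5a1 ran from 18.4 to 32.6 CPM (median 29.8) and from 8.11 to 36.3 CPM (median 13.5) (log2 fold change -0.71 ± 0.25 (SE), adjusted p = 0.0454). That call was retained in 16 of 28 fits that each left out 1 library, and the groups overlapped. The abundant enzymes did not pass the call, with log2 fold changes of 0.06 ± 0.21 for Sult2a8, 0.38 ± 0.18 for the phenol enzyme Sult1a1 and 0.51 ± 0.13 for the catecholamine enzyme Sult1d1.

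Fewer members were called under cold exposure on the control diet. In Ctrl_CE against Ctrl_RT 10 members rose and 4 fell, where 11.9% of all tested genes were called (7.28% higher and 4.64% lower). Without Ctrl_CE replicate 4 the total was 13 in place of 14. The median log2 fold change was 0.22 over the members and -0.01 over all genes. Only 2 members, Gstm2 and Gstm4, had groups without overlap, against 7.5% of tested genes (4.01% higher and 3.49% lower). By family, 6 Gst members rose and 1 fell, 4 Ugt members rose and 2 fell, and 1 Sult member fell. No Sult member rose by this call in edgeR (0 had an unadjusted p under 0.05, and DESeq2 called 0).

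Some of the alpha and mu members that rose with MetR also rose with cold, while Gsta4 (0.15 ± 0.19), Gstm4 (0.51 ± 0.098) and Gstm6 (0.28 ± 0.11) did not pass the call. Gsta2 ran from 0.838 to 7.90 CPM (median 6.16) in Ctrl_CE, with the lowest value in replicate 4, a log2 fold change of 1.44 ± 0.32 (SE), adjusted p = 0.000866 against Ctrl_RT. Gstm3 ran from 22.8 to 60.1 CPM (median 35.99) (1.29 ± 0.24 (SE), adjusted p = 0.000124) and Gstm2 from 32.4 to 49.9 CPM (median 37.6) (1.08 ± 0.14 (SE), adjusted p = 1.33e-06). Gsta3 rose with 0.69 ± 0.12, Gstm1 with 0.74 ± 0.14 and Gstt3 with 1.01 ± 0.20. Gstp1 fell with -0.61 ± 0.17, from 1011 to 1945 CPM (median 1379) in Ctrl_RT to 498 to 1298 CPM (median 981) in Ctrl_CE. Its call was retained in 22 of the 28 fits without 1 library, and without Ctrl_CE replicate 4 its value was -0.49.

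Ugt1a5 had the largest log2 increase with cold of the 43 members. It ran from 1.72 to 9.43 CPM (median 4.39) in Ctrl_RT and from 7.25 to 29.4 CPM (median 20.1) in Ctrl_CE (log2 fold change 2.14 ± 0.35 (SE), adjusted p = 2.14e-05). Ugt1a9 rose with 0.86 ± 0.19, Ugt1a6a with 0.76 ± 0.18 and Ugt3a1, of a family that uses other UDP-sugars, with 0.59 ± 0.13. The call of Ugt3a1, named after its value was seen, was retained in 23 of 28 fits. Ugt2b37 ran from 0.534 to 3.59 CPM (median 1.06) and Ugt2b38 from 2.41 to 15.9 CPM (median 5.02) in Ctrl_CE, both lower than in Ctrl_RT with log2 fold changes of -2.16 ± 0.47 and -1.68 ± 0.37. Without Ctrl_RT replicate 7 the value of Ugt2b37 was -1.29. Sult5a1 fell with -0.96 ± 0.26 (SE), adjusted p = 0.00489.

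With both treatments together, MetR_CE against Ctrl_RT, 18 members rose and 4 fell, where 13.5% of tested genes were called (6.25% higher and 7.22% lower). The median log2 fold change was 0.45 over the members and -0.04 over all genes. Groups did not overlap for 15 members that were higher and 5 that were lower, against 12% of tested genes (6.31% higher and 5.65% lower). Ugt2b37 is among the 5, partly by the rule. Of the Gst members 11 rose and 1 fell, of the Ugt members 5 rose and 2 fell, and of the Sult members 2 rose and 1 fell. Gsta2 ran from 13.2 to 29.3 CPM (median 20.9) (3.50 ± 0.30 (SE), adjusted p = 3.4e-10) and Gstm2 from 87.9 to 112 CPM (median 105) (2.49 ± 0.15 (SE), adjusted p = 4.74e-13). Gstm1 ran from 1189.6 to 1652 CPM (median 1343), below its range in MetR_RT and above its range in Ctrl_CE (1.75 ± 0.14 (SE), adjusted p = 1.75e-10). Ugt1a9 ran from 89.1 to 140.0 CPM (median 95.5) in MetR_CE (2.63 ± 0.20 (SE), adjusted p = 2.48e-11), the highest median of the 4 groups. Ugt2b38 ran from 0.538 to 4.24 CPM (median 1.30) (-3.60 ± 0.43 (SE), adjusted p = 1.36e-07). Ugt2b37 was at its lowest, from 0.109 to 0.669 CPM (median 0.276) (-4.18 ± 0.58, and -3.32 without Ctrl_RT replicate 7). Gstp1 fell with -0.89 ± 0.17, and Ugt1a6b rose with 0.79 ± 0.088. Sult1d1 rose with 0.68 ± 0.13 and Sult1c2 with 0.83 ± 0.21, while Sult2a7 had -0.96 ± 0.31 (SE), adjusted p = 0.0183, a call lost without Ctrl_RT replicate 2 (-0.79, adjusted p = 0.0573).

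The 3 comparisons share the Ctrl_RT mice, so their calls are set side by side without a test of overlap. The matching shares over all tested genes were not computed for the joint counts in this paragraph. In all 3, Gsta2, Gsta3, Gstm1, Gstm2, Gstm3, Gstt3, Ugt1a6a and Ugt1a9 rose and Ugt2b38 fell, with Ugt2b37 also lower in part by the rule. Called only in MetR_RT were Gstm6, Gstt1, Ugt1a1 and Ugt2b35, only in Ctrl_CE Ugt1a5 and Ugt3a1, and only in MetR_CE Sult1d1 and Ugt1a6b. No member was called in opposite directions, and the shared Ctrl_RT mice make like directions more likely for any gene. A further 14 members were called in none of the 3, among them Mgst1, Gstz1, Gstk1, Ugt2b34, Ugt2b1, Ugt3a2, Sult2a8, Sult1a1 and Sult1b1. Gstz1, for example, had group medians of 604, 554, 646 and 574 CPM, in the order Ctrl_RT and Ctrl_CE, then MetR_RT and MetR_CE.

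**Figure D3:**
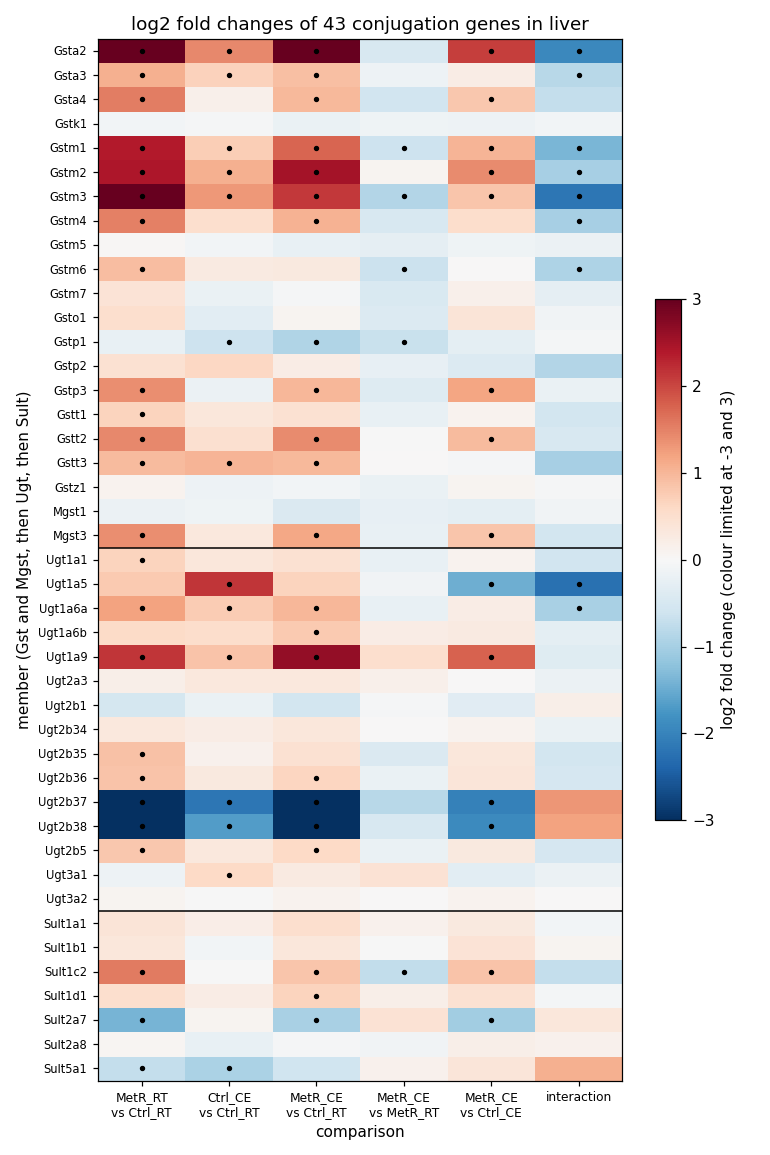
Log2 fold change (colour, limited at -3 and 3) of each of the 43 members (rows, by family) in each of the 6 comparisons (columns), with a dot where the change was called. In the MetR_RT column 20 dots lie on higher and 4 on lower members, and in the interaction column all 9 dots lie on negative values.

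Whether MetR acted alike at 22 and 4 °C was asked by comparing MetR_CE with Ctrl_CE, which shares no mouse with the comparison at 22 °C. In the cold 10 members rose and 4 fell with MetR, where 5.26% of tested genes were called (1.17% higher and 4.1% lower). Without Ctrl_CE replicate 4 the total was 12. Of the 24 members called at 22 °C 13 were also called at 4 °C in the same direction, 54.17% of the first and 92.86% of the 14 called at 4 °C. Direction was shared by 38 of 43 members, and 34 changed less at 4 °C than at 22 °C. The matching shares over all tested genes were not computed for these counts or for calls at both temperatures. Over all tested genes calls with MetR were also fewer at 4 °C, 5.26% against 6.91% at 22 °C. The Pearson correlation of the log2 fold changes was 0.866 across the 43 members, which share libraries and partly sequence, and is given as a description. Gsta2 had 3.99 ± 0.30 at 22 °C and 2.07 ± 0.26 at 4 °C, Gstm1 2.38 ± 0.15 and 1.01 ± 0.14, and Gstm3 2.99 ± 0.25 and 0.83 ± 0.23. Ugt1a9 was closer, at 2.14 ± 0.19 and 1.77 ± 0.19. Ugt1a5 turned from 0.78 ± 0.35 to -1.47 ± 0.33, its level of 4.67 to 9.30 CPM (median 7.16) in MetR_CE lying near that of MetR_RT.

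**Figure D4:**
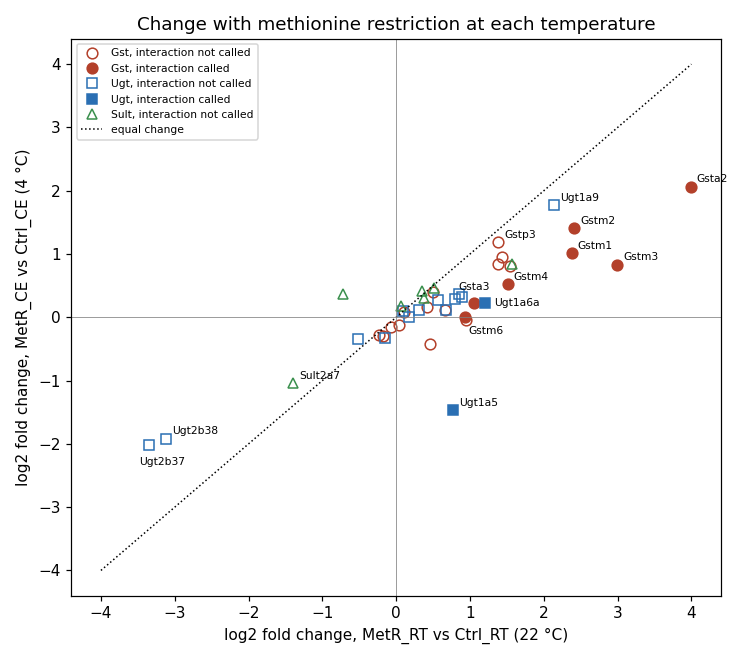
Log2 fold change with MetR at 22 °C (horizontal axis) and at 4 °C (vertical axis) for each of the 43 members, with filled symbols where the interaction was called. The 9 filled symbols lie below the dotted line of equal change, and 13 members were called on both axes in the same direction.

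The difference between the diet effects, tested as the diet by temperature interaction, was called for 9 members, all negative, where 1.06% of tested genes were called (0.375% positive and 0.682% negative). It was -2.17 ± 0.33 (SE), adjusted p = 0.00159 for Gstm3 and -1.92 ± 0.40 (SE), adjusted p = 0.0104 for Gsta2 on the log2 scale. For Gstm1 it was -1.36 ± 0.20 (SE), adjusted p = 0.000997. Gstm2 had -1.01 ± 0.20, Gstm4 -0.99 ± 0.14, Gstm6 -0.92 ± 0.15 and Gsta3 -0.84 ± 0.18. The estimate was negative for all 21 Gst members, with a median of -0.55 against -0.03 over all genes. Among the glucuronosyltransferases Ugt1a5 had -2.25 ± 0.48 (SE), adjusted p = 0.013, and Ugt1a6a -0.98 ± 0.25 (SE), adjusted p = 0.0369, a call retained in 14 of 28 fits without 1 library. No Sult member was called by edgeR (1 positive and 1 negative had an unadjusted p under 0.05), and DESeq2 called Sult5a1 positive. No member had a positive call in edgeR (1 had an unadjusted p under 0.05). The calls ask for a difference from 0 and an estimate of at least 1.5-fold. Tested against a 1.5-fold difference itself with glmTreat, 0 of the 43 interactions passed, as did 0 of all 22143 tested genes. Of the 43, 11 had an unadjusted p under 0.05, a share that was not computed over all genes.

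The effect of cold on top of MetR was read from MetR_CE against MetR_RT. Here 5 members fell, Gstm1, Gstm3, Gstm6, Gstp1 and Sult1c2, where 5.19% of tested genes were called (2.75% higher and 2.44% lower). None rose by the edgeR call (3 had an unadjusted p under 0.05, and DESeq2 called 0). The log2 fold changes were -0.87 ± 0.23 (SE), adjusted p = 0.0061 for Gstm3 and -0.74 ± 0.19 (SE), adjusted p = 0.00674 for Sult1c2. The other 3 were close to the 1.5-fold limit, at -0.62 ± 0.14 for Gstm1, -0.65 ± 0.11 for Gstm6 and -0.66 ± 0.17 for Gstp1. Without MetR_RT replicate 4 Gstm1 and Gstm6 had -0.56 and -0.58 and were no longer called, and without MetR_CE replicate 1 the same held for Gstp1 at -0.57. With glmTreat 0 of the 5 passed (1 had an unadjusted p under 0.05), where 0.307% of all tested genes passed.

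Summed over each family, which weights long and abundant transcripts most, the Gst members came to 6227 ± 349 CPM in Ctrl_RT (mean ± SD, n = 7), 6317 ± 789 in Ctrl_CE, 8928 ± 487 under MetR_RT and 6916 ± 153 under MetR_CE. Every MetR_RT sum, at 8446 CPM or more, exceeded every other, the highest of which was 7276 CPM. The Ugt members came to 3104 ± 329 CPM in Ctrl_RT, 3493 ± 399 in Ctrl_CE, 4279 ± 209 under MetR_RT and 3936 ± 170.2 under MetR_CE. The corresponding Sult sums were 917 ± 44.8, 852 ± 158, 1028 ± 91.8 and 1016 ± 124 CPM. The Sult sums overlapped between all pairs of groups.

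**Figure D5:**
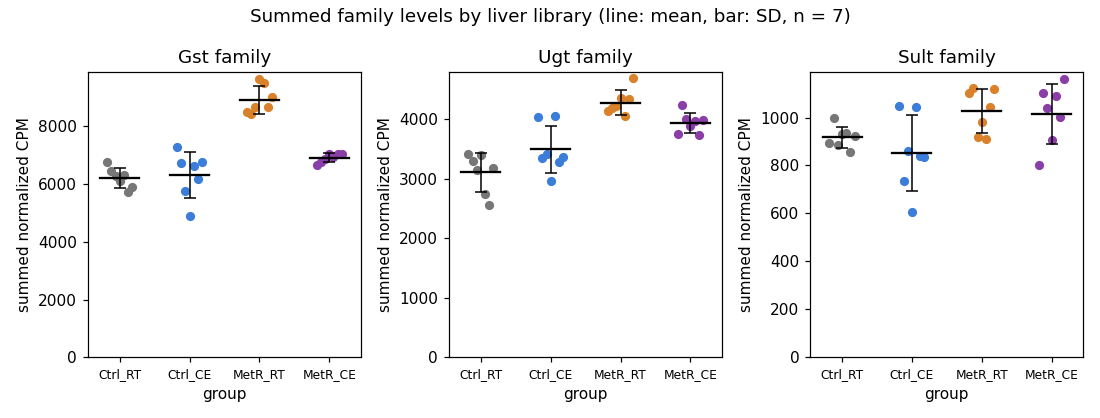
Summed normalized CPM of the Gst, Ugt and Sult members in each liver library, with 1 point per mouse, a line at the mean and a bar of 1 SD in each group (n = 7). The Gst sums of all 7 MetR_RT mice lie above those of every other mouse, while the Sult sums of the 4 groups overlap.

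Genes that supply or clear the cofactors were described from lists chosen with earlier results of these data known. The counts of these and later lists stand beside 6.91%, 11.9% and 13.5% of all tested genes called in MetR_RT, Ctrl_CE and MetR_CE. For glutathione, 2 of 10 genes rose in MetR_RT (list median 0.42) and 1 in MetR_CE (0.16). Slc7a11, the cystine importer, was at 0 to 0.187 CPM (median 0) in Ctrl_RT and at 0.275 to 2.61 CPM (median 0.968) in MetR_RT, and it was the one called in both. Gclc, which catalyses the limiting step of glutathione synthesis, ran from 206 to 409 CPM (median 361) in Ctrl_RT and from 607 to 798 CPM (median 701) in MetR_RT (log2 fold change 1.03 ± 0.13), but from 369 to 501 CPM (median 395) in MetR_CE. Its interaction was -0.90 ± 0.18 (adjusted p = 0.00908), and it was named after its values were seen. Of 7 genes that act on glutathione conjugates or on products made from them, 1 was called in Ctrl_CE and 1 in MetR_CE. In each this was Kyat1, a cysteine conjugate lyase, which fell in Ctrl_CE (-0.67 ± 0.13) and MetR_CE (-0.67 ± 0.13).

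Genes of UDP-glucuronic acid supply rose in part under MetR, 3 of 6 in MetR_RT (list median 0.35) and 2 in MetR_CE. Ugp2, which makes UDP-glucose, ran from 260.3 to 459 CPM (median 349) in Ctrl_RT and from 767 to 1122 CPM (median 987) in MetR_RT (1.43 ± 0.12, and 1.35 ± 0.12 in MetR_CE). Ugdh, which oxidises it to UDP-glucuronic acid, had 1.24 ± 0.11 and 0.77 ± 0.11. Of 8 tested genes of PAPS and sulfate supply, the PAPS synthase Papss2 and the sulfate transporter Slc26a2 rose in Ctrl_CE (0.95 ± 0.15 and 0.72 ± 0.11) and in MetR_CE (0.82 ± 0.15 and 0.72 ± 0.11). Their MetR_RT values were 0.24 ± 0.15 and 0.02 ± 0.12.

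Other conjugation routes, deconjugation and transport were listed too. Of all tested genes 6.91%, 11.9% and 13.5% were called in MetR_RT, Ctrl_CE and MetR_CE. Of 9 genes of amino acid conjugation 0 were called in MetR_RT, 0 in Ctrl_CE and 2 in MetR_CE. In MetR_CE the bile acid CoA ligase Slc27a5 fell (-0.66 ± 0.065) and the acyltransferase Acnat1 rose (0.64 ± 0.11). Of 8 genes of N-acetyl and methyl conjugation 1 rose and 2 fell in MetR_RT, 1 fell in Ctrl_CE and 2 fell in MetR_CE. Among them Nnmt, which methylates nicotinamide, fell in MetR_RT (-1.33 ± 0.22) and in MetR_CE (-0.59 ± 0.22). Its Ctrl_CE value of -0.14 ± 0.22 did not pass the call. Of 4 tested deconjugating enzymes 1, Ces1d, rose in Ctrl_CE (0.87 ± 0.26), with 0 called in MetR_RT and 0 in MetR_CE. Of 15 uptake and export transporters 5 rose and 2 fell in MetR_RT, 4 rose in Ctrl_CE, and 6 rose and 2 fell in MetR_CE. Slco1a4, which imports organic anions, had 1.84 ± 0.34, 0.98 ± 0.34 and 2.34 ± 0.34 in the order MetR_RT, Ctrl_CE and MetR_CE. The exporters Abcb1a and Abcc4 reached 2.10 ± 0.25 and 1.88 ± 0.19 in MetR_CE.

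Of 16 receptors and transcription factors that control phase II genes, 1 rose and 1 fell in MetR_RT, and 3 rose and 1 fell in each of Ctrl_CE and MetR_CE. The shares over all tested genes were 6.91%, 11.9% and 13.5% in MetR_RT, Ctrl_CE and MetR_CE, here and for the targets below. Nr1i3 (CAR) rose in every comparison with Ctrl_RT, with 1.12 ± 0.18 in MetR_RT, 0.74 ± 0.17 in Ctrl_CE and 1.66 ± 0.18 in MetR_CE. Ppara had 0.002 ± 0.17, 1.33 ± 0.17 and 1.53 ± 0.17 and was called in the cold groups, and the corepressor Nr0b2 fell in Ctrl_CE (-0.95 ± 0.26) and MetR_CE (-1.24 ± 0.27). Ahr rose in Ctrl_CE (0.83 ± 0.17) and MetR_CE (0.89 ± 0.17), with 0.47 ± 0.17 in MetR_RT, where it did not pass the call. Nfe2l2 (NRF2) was called in none of the 3, with 0.42 ± 0.085, 0.35 ± 0.085 and 0.16 ± 0.085, but had a called interaction of -0.61 ± 0.12. Known targets of these factors outside the conjugation families were counted as well. Of 8 CAR and PXR targets 2 rose in MetR_RT, 4 rose in Ctrl_CE, and 2 rose and 1 fell in MetR_CE, with Cyp2a5 at 2.78 ± 0.15 and Cyp2c55 at -1.18 ± 0.30 in MetR_CE. Of 10 NRF2 targets 4 rose in MetR_RT, 3 rose and 1 fell in Ctrl_CE, and 2 rose and 1 fell in MetR_CE. Nqo1, the quinone reductase, had 1.98 ± 0.22, 1.11 ± 0.22 and 1.91 ± 0.22, with an interaction of -1.18 ± 0.29. Osgin1 fell in MetR_CE (-1.38 ± 0.19). Of 5 AHR targets 1 rose in MetR_RT, 2 in Ctrl_CE and 1 in MetR_CE, among them Cyp1a1 in all 3 comparisons (1.34 ± 0.25, 1.01 ± 0.26 and 1.22 ± 0.26). Of 10 PPAR alpha targets 2 rose in MetR_RT and 5 in each cold comparison. The fatty acid hydroxylase Cyp4a14 had 2.65 ± 0.76, 2.92 ± 0.77 and 3.73 ± 0.79 in the order MetR_RT, Ctrl_CE and MetR_CE. The hormone gene Fgf21 had 3.05 ± 0.71, 0.71 ± 0.73 and 1.901 ± 0.72 in the same order, its Ctrl_CE value not being called.

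Among these pathway lists, liver genes that differ by sex had the largest median changes. Of 10 genes known to be higher in males 7 fell in MetR_RT (list median -1.69), 6 in Ctrl_CE (-1.08) and 8 in MetR_CE (-2.02). Of 8 tested genes known to be higher in females 5 rose in MetR_RT, 4 in Ctrl_CE and 7 in MetR_CE (list median 4.24). Selenbp2 ran from 128 to 1099 CPM (median 829) in Ctrl_RT, from 15.6 to 47.2 CPM (median 27.6) in MetR_RT and from 4.91 to 32.5 CPM (median 12.6) in MetR_CE. Acot3 ran from 0 to 1.25 CPM (median 0.0780) in Ctrl_RT and from 8.47 to 40.2 CPM (median 20.3) in MetR_CE. Cyp2b9 was at 0 to 0.138 CPM (median 0) and at 0.231 to 13.5 CPM (median 3.73), very low in several libraries of each group. All mice were male, and no relation of these genes to the conjugation members was tested.

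Markers of other liver cells and of liver zones moved with diet and with cold. All 8 endothelial markers rose in Ctrl_CE and in MetR_CE, their sum running from 159 to 228 CPM in Ctrl_RT, 277.5 to 418 in Ctrl_CE, 228 to 291.1 under MetR_RT and 362 to 410.4 under MetR_CE. Of 7 Kupffer cell and macrophage markers 5 rose in Ctrl_CE, 3 fell in MetR_RT and 2 fell in MetR_CE, with sums of 250.9 to 347, 222 to 1002, 123 to 228 and 201 to 240.1 CPM in the same order of groups. Of 8 stellate cell markers 5 rose in Ctrl_CE. The 8 hepatocyte markers summed to 68398 to 100246 CPM in Ctrl_RT, 64012 to 83939 in Ctrl_CE, 60800.5 to 83748 under MetR_RT and 55091 to 63449 in MetR_CE. Of them 1 fell in MetR_RT, 1 rose and 3 fell in Ctrl_CE, and 1 rose and 2 fell in MetR_CE. Of 7 periportal markers 3 fell and 1 rose in MetR_RT and 3 fell in MetR_CE, with sums of 4038 to 4651 CPM in Ctrl_RT, 3159 to 3808 in Ctrl_CE, 2569 to 3735 under MetR_RT and 2988 to 3717 under MetR_CE. Every Ctrl_RT sum lay above every sum of the other groups. Of 7 pericentral markers 1 fell in MetR_RT, 1 rose in Ctrl_CE and 1 rose in MetR_CE, with sums of 5454 to 7903, 5684 to 7208, 6476 to 10861 and 7246 to 8937 CPM in that order of groups. Cholangiocyte markers summed to 49.5 to 323 CPM (median 60.2) in Ctrl_RT, 34.4 to 42.9 in Ctrl_CE, 32.4 to 41.4 under MetR_RT and 26.99 to 31.4 in MetR_CE. In MetR_CE 3 of 3 erythroid markers fell. Lymphocyte markers summed to 7.10 CPM or less in every library, and neutrophil markers to 6.96 CPM or less except for 51.4 in Ctrl_CE replicate 4. Saa1 ran from 1759 to 8423 CPM in Ctrl_RT, 10.2 to 10994 in Ctrl_CE, 9.08 to 384 under MetR_RT and 1.54 to 13.01 under MetR_CE. The part of cell makeup, of liver zones or of the acute-phase state in the member values was not tested.

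The rule asked for a level in liver and set no condition in fat, so that a highest level in liver was partly fixed by it. Among Ctrl_RT mice, 36 of 43 had their highest median CPM in liver, when set beside interscapular brown fat (iBAT) and inguinal (iWAT) and epididymal (eWAT) white fat from tables with separate library scaling. For 26 every liver library was above every fat library, and 19 had medians under 1 CPM in all 3 depots. The exceptions were Gsta4 and Gsto1, highest in iBAT, Gstp2, highest in iWAT, and Gstm2, Gstm5, Gstt2 and Mgst3, highest in eWAT. Gstp2 had medians of 3.02 CPM in iWAT and 2.55 CPM in liver, with overlapping ranges. The iBAT values came from the 6 libraries titled Ctrl_RT, where the paper lists 7 for that group. All 7 eWAT libraries of Ctrl_RT were used here, although the paper left 3 of them out of its transcriptome comparisons as outliers. The eWAT medians, and the counts that rest on eWAT values, were not recomputed without those libraries. Levels in this paragraph were compared as CPM without TMM factors, and Mgst3 had medians of 5.19 CPM in liver and 151 CPM in eWAT.

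Of the fat depots, groups were compared in iWAT alone (27 libraries in the same 4 groups), and those comparisons in iBAT and eWAT were not analysed here. In iWAT 32 of the 43 members could be tested. Called were 1 in MetR_RT (11.6% of tested genes), 5 in Ctrl_CE (15.9%) and 7 in MetR_CE (22.4%). Gsta4 rose in all 3, with 0.91 ± 0.14, 0.76 ± 0.14 and 0.81 ± 0.14. Gsta3 rose in Ctrl_CE (0.94 ± 0.26), while Gstp2 fell in Ctrl_CE (-0.87 ± 0.21) and MetR_CE (-0.99 ± 0.22). Gstt2 (0.83 ± 0.13) and Mgst3 (0.61 ± 0.15) rose in MetR_CE as in liver. Ugt1a6a went the other way, with -1.09 ± 0.27 in iWAT and 0.99 ± 0.18 in liver, at a median of 1.71 CPM in Ctrl_RT iWAT. Sult5a1 (-0.88 ± 0.31) and Ugt3a2 (0.94 ± 0.26) were also called in MetR_CE, Ugt3a2 at very low medians of 0.308 CPM in Ctrl_RT and 0.595 CPM in MetR_CE. The Ctrl_CE calls of Sult2a8 and Ugt2b36 rested on a few counts. With glmTreat 0 of the 7 in MetR_CE passed, 6 having an unadjusted p under 0.05, and the share over all iWAT genes was not computed. The difference between the tissues was not tested.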

How the data were processed

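Poly(A) RNA of liver and fat was sequenced as 50-base read pairs. Gene counts, deposited by the authors as 1 table of whole numbers for liver and others for fat, were used as they stand. Their processing notes name STAR 2.7.9a, featureCounts 2.0.3, Salmon 1.9.0, MultiQC 1.19, DESeq2 1.46.0 and the build mm10, without saying which counter made the table used here. Library totals ran from 6987895 to 33444374 counts in liver. Symbols came from GENCODE M21, which matched 51948 of 56884 identifiers after removal of versions.

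Genes with a total of at least 10 counts (22143 in liver, 26428 in iWAT) were fitted with edgeR 4.0.16 (R 4.3.3, TMM factors, quasi-likelihood test) with diet, temperature and their interaction over all 28 liver libraries. Adjusted p-values are Benjamini-Hochberg values over all tested genes, and a call needed an adjusted p under 0.05 and a change of at least 1.5-fold. Alternatives were RLE factors, no filter, filterByExpr, DESeq2 1.42.0, glmTreat, a replicate block, plain CPM and libraries left out. Promoter windows and motifs were read from RefSeq tables with Python 3.11.15.

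The members and the gene lists were chosen with earlier results of these data known. Named with values were, in each family and main comparison, up to 5 called members with the largest change, all members with a called interaction, the 3 most abundant of each family, those next to the 1 CPM cutoff, and up to 3 called genes of each pathway list in MetR_CE. Other named genes were chosen after their values were seen. A result for 1 gene of a pathway list is not reported here.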

Additional observations from a re-analysis of the deposited data

Results flagged for a closer look

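In 11 of 128 sets of 7 mice tested, 1 mouse lay farther from the rest of its group than Dixon's 95% bound allows, where chance gives about 1 in 20. Ctrl_CE replicate 4 was the source of 2, with Gsta4 low at 4.57 CPM (nearest mouse 12.1) and Sult1a1 high at 325 CPM (nearest 158). This is also the library with the lowest correlation to the others. Ugt2b37 was high at 21.7 CPM in Ctrl_RT replicate 7 (nearest 4.79) and at 3.59 CPM in Ctrl_CE replicate 5 (nearest 1.68). Ugt2b38 was high at 4.24 CPM in MetR_CE replicate 2 (nearest 1.67). Ugt1a9 was high at 31.9 CPM in Ctrl_RT replicate 5 (nearest 17.1) and at 46.8 CPM in Ctrl_CE replicate 1 (nearest 31.97). Ugt2b36 was high at 1013 CPM in MetR_RT replicate 7 (nearest 918) and low at 683 CPM in MetR_CE replicate 1 (nearest 776). That last library was also the lowest of its group for Ugt1a6b, at 40.9 CPM (nearest 47.6). Sult5a1 was high at 36.3 CPM in MetR_RT replicate 6 (nearest 19.1).

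The change with MetR differed between 22 and 4 °C, by the interaction test, for 9 members. On the log2 scale the difference was -1.92 for Gsta2, -0.84 for Gsta3, -1.36 for Gstm1, -1.01 for Gstm2, -2.17 for Gstm3, -0.99 for Gstm4, -0.92 for Gstm6, -2.25 for Ugt1a5 and -0.98 for Ugt1a6a, so that each had a smaller or opposite change with MetR in the cold. The cause of these values was not tested.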

How the results depend on the processing

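The call rule mattered most. With glmTreat, which tests against a 1.5-fold change, the members called were 17 in MetR_RT, 5 in Ctrl_CE (3 higher and 2 lower), 11 in MetR_CE against Ctrl_RT (9 and 2), 0 in MetR_CE against MetR_RT, 4 in MetR_CE against Ctrl_CE, 0 in the interaction and 0 in iWAT, in place of 24, 14, 22, 5, 14, 9 and 7. Unadjusted p-values under 0.05 were found there for 1 member in MetR_CE against MetR_RT, 11 in the interaction and 6 in iWAT, and the stricter null hypothesis is the construction of that test. Over all 22143 genes tested in liver, glmTreat called 1.44%, 2.1%, 4.31%, 0.307%, 0.709% and 0% in the same order of liver comparisons. The share over all iWAT genes was not computed. Ugt2b37, lower partly by the rule, is among the lower members of the glmTreat counts against Ctrl_RT. Plain CPM gave family sums of 7265 (Gst, MetR_CE), 4137 (Ugt, MetR_CE) and 867 (Sult, Ctrl_RT), which differ by more than 1 SD from the values given. DESeq2 called 11 interactions (1 positive and 10 negative). Over all genes it called 411 of 13557 tested (3.03%), against 234 of 22143 (1.06%) with edgeR. Of 1431 recomputed values for named members 1375 kept direction and call, 51 lost the call (43 of them with glmTreat), 5 gained it and 0 reversed.

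Replicate numbers did not pair the mice, as same-numbered libraries had correlations of deviations from -0.075 to 0.105 over 42 pairs, with 3 libraries closest to their own number. With the replicate block 24, 14, 23, 5, 14 and 9 members were called in the 6 liver comparisons and 7 in iWAT.

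With each of the 28 libraries left out in turn, counts ranged from 23 to 26 in MetR_RT, 12 to 15 in Ctrl_CE, 21 to 24 in MetR_CE against Ctrl_RT, 4 to 7 against MetR_RT, 12 to 14 against Ctrl_CE and 8 to 12 in the interaction. Without Ctrl_CE replicate 4 they were 24, 13, 22, 5, 12 and 11. Calls near a limit were those of Sult5a1 in MetR_RT (retained in 16 of 28 fits), Gstp1 and Ugt3a1 in Ctrl_CE (22 and 23), Ugt2b5 and Sult1d1 in MetR_CE against Ctrl_RT (24 and 26), Ugt2b37 and Sult2a7 in MetR_CE against Ctrl_CE (21 and 24) and Ugt1a6a in the interaction (14). For Ugt2b5 the value without Ctrl_RT replicate 6 was 0.53, and for Sult1d1 it was 0.58 without Ctrl_RT replicate 7 and 0.58 without MetR_CE replicate 7. Low counts limit Ugt2b37, Sult2a7, Gstp2 and Gsta2, and reads shared between near-identical genes limit the Ugt1a, Ugt2b and Gstp members.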
